A study of Mus musculus with 4 samples.

Results

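p53 and 6 genes that act back on it or belong to its family were followed in the small intestine (SI) of irradiated mice. The members are Trp53, Mdm2, Mdm4, Ppm1d, Ccng1, Trp73 and Rchy1, taken by gene name from the deposited count table, where all 7 were found among 56748 genes. Poly-A RNA of whole SI tissue was sequenced from 2 WT (p53+/+) and 2 p53-/- mice, all collected 1 day after a single whole-body exposure to 12 Gy (total-body irradiation, TBI) from a Cs-137 source. Both strains came from the Jackson Laboratory, and the study describes its mice as 8 to 12 weeks old and matched for age and sex. Unirradiated SI was not analysed here, so every comparison below is between genotypes after TBI. Libraries are called WT 7, WT 8, p53-/- 9 and p53-/- 10 after the columns of the table, and these numbers pair no animals.

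p53 is a transcription factor that DNA damage stabilises, and in the crypts of the irradiated gut it is known for driving cell cycle arrest and apoptosis. Its protein is held down by a feedback loop: p53 switches on Mdm2, a ubiquitin ligase that marks p53 for destruction, and Mdm4, a relative of Mdm2 without strong ligase activity, binds p53 and blocks its activation domain. Rchy1 (Pirh2) is another ubiquitin ligase of p53, Ppm1d (WIP1) is a phosphatase that removes damage-induced phosphates from p53 and its kinases, Ccng1 (cyclin G1) brings the phosphatase PP2A to Mdm2, and Trp73 encodes the p53 relative p73. Mdm2, Ppm1d, Ccng1 and Rchy1 have all been described as genes that p53 itself can induce.

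The DNA just before the start of these genes is shown first, because p53 binds an element made of paired decamers. Whether this DNA bears on the genotype differences below was not tested. RefSeq promoter windows (GRCm38.p6, 250 bases before to 50 after a start) matched all 7 members, in 10 windows. The letters of the p53 decamer consensus, 10 bases whose consensus reads the same on both strands, were present in 5 of the 10 windows, against 8.36% of all 32851 windows, and in a window of 5 of the 7 members, against 9.55% of all 27025 genes. Only decamers that fit the consensus at every position were counted. None of the 10 windows held a pair of these up to 13 bases apart, which 0.0731% of all windows held. Pairs with a mismatched decamer were not searched for. In Ccng1 the bases directly before the decamer, agacctgccc, miss the consensus at a single letter. How often such near matches occur in the other member windows or in all windows was not counted. The 60 bases around each match follow, 5′ to 3′ on the strand of the gene, with the decamer in capitals.
Ccng1, chr11:40755437-40755496 (minus strand): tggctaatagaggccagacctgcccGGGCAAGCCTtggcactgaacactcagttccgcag
Mdm2, chr10:117710910-117710969 (minus strand): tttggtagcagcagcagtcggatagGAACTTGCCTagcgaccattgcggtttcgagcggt
Trp53, chr11:69580259-69580318 (plus strand): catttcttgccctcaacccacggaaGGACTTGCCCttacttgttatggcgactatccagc
Ppm1d, chr11:85311097-85311156 (plus strand): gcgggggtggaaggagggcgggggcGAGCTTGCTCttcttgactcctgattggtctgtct
Rchy1, chr5:91962612-91962671 (minus strand): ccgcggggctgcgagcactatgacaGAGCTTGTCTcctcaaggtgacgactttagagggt
The match began 185 bases before the start in Ccng1, 186 in Mdm2, 75 in Trp53, 132 in Ppm1d and 90 in Rchy1. The windows of Mdm4 and Trp73 held none. The 5 members with a match had log2 fold changes (p53-/- minus WT) from -3.32 in Ccng1 to -0.02 in Rchy1. The first window of Wrap53, which is read from the opposite strand, overlaps that of Trp53 and holds the same match. A match is a stretch of letters and not evidence of binding, and these windows reach no further than 50 bases into a gene. For Ccng1, whose count differed most between genotypes, all 250 bases before the start (chr11:40755287-40755536, minus strand) read as follows, with the same decamer in capitals.
Ccng1 promoter: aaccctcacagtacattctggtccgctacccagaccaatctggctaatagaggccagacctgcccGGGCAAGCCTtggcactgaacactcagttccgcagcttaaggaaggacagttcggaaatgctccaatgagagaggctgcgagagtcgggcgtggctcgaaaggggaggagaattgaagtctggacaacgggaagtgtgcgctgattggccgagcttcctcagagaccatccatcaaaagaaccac

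The libraries held 15005479 to 22173164 counts. Small intestinal epithelium was present in each: all 10 of its markers (among them Vil1, Sis, Olfm4 and Lyz1) were detected in every library, with a summed level of 15730 to 20210 CPM (the count relative to the TMM-scaled total of its library). Within this list 5 markers were lower in both p53-/- libraries than in both WT libraries and 3 were higher. None passed edgeR's test, and DESeq2 called the enterocyte genes Fabp2 and Alpi lower (0.587 and 0.525 of the WT level) and the stem cell marker Olfm4 higher (769 and 246 counts in WT, 10802 and 10559 in p53-/-). The summed markers of several other cell types also differed between genotypes. The 5 T cell markers summed to 5.82 and 11.7 CPM in WT and 49.3 and 80.1 in p53-/-, and the 5 B cell markers to 1.11 and 1.82 CPM in WT and 20.3 and 385 in p53-/- 9 and p53-/- 10, with Ms4a1 at 0 in WT 7 and Cr2 in WT 8. The 4 macrophage markers summed to 39.5 and 67.4 CPM in WT against 90.5 and 106, and the 6 proliferation markers to 195 to 316 against 495 to 567. Adgre1 among the macrophage markers and Pcna among the proliferation markers overlapped between genotypes. Neither edgeR nor DESeq2 called a macrophage marker. The 4 adipocyte markers were at 27.6 and 44.6 CPM in WT and 0.219 and 0.448 CPM in p53-/-, where Plin1 was at 0 in both libraries, and Adipoq and Cfd were also at 0 in a library. Smooth muscle varied within WT, with 336 CPM in WT 7 and 3140 in WT 8, against 762 and 518 in p53-/-. The 18S ribosomal RNA gene Rn18s-rs5 took 4.59% of the counts of p53-/- 10 and 0.296% to 0.863% of the others. The part of these differences in the results below was not tested.

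**Figure D1:**
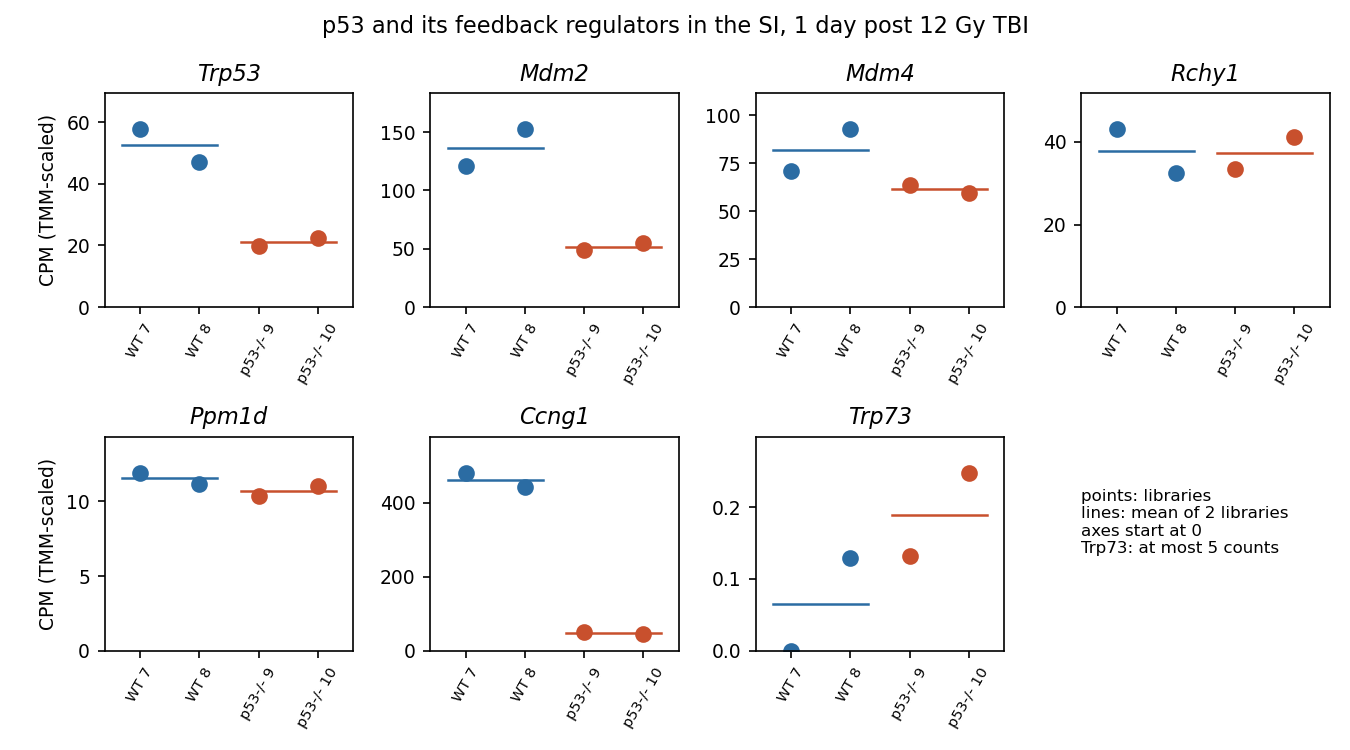
CPM of each of the 7 genes in each library (points) with the mean of the 2 libraries of a genotype (lines), on linear axes that start at 0. The p53-/- points lie far below the WT points for Ccng1, Mdm2 and Trp53, just below them for Mdm4 and Ppm1d, among them for Rchy1, and Trp73 never exceeds 0.249 CPM.

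Of the 7 members, Ccng1 fell past the threshold in p53-/- SI, and Trp73 was barely detected. Mdm2 and Trp53 were at 0.379 and 0.404 of the WT level without passing the threshold. Mdm4, Ppm1d and Rchy1, which did not pass either, were at 0.75, 0.93 and 0.99 of the WT level. The test was edgeR's quasi-likelihood test over 16094 genes with Benjamini-Hochberg adjustment at 0.05. It called 1 member lower and 0 higher, while it called 0.193% of all genes lower and 0.298% higher. At an unadjusted p under 0.05, 3 members were lower and 0 higher, beside 7.92% of all genes lower and 10% higher. DESeq2 called 3 members lower (Ccng1, Mdm2 and Trp53) and 0 higher, beside 4.47% of all genes lower and 5.47% higher. Both p53-/- libraries lay below both WT libraries in 5 of the 6 members tested, an arrangement that 24.4% of all genes showed in this direction. For Ppm1d this rested on the TMM scaling. With 2 libraries a genotype, p-values rest on these samples alone, and the spread of each gene was estimated together with that of the other genes. In whole tissue, fewer cells that express a gene and less of its RNA per cell cannot be told apart.

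Trp53 (ENSMUSG00000059552) is the gene that the p53-/- mice lack in functional form, and its reads check the labels. It was at 57.7 CPM in WT 7, 47.1 in WT 8, 19.8 in p53-/- 9 and 22.5 in p53-/- 10. Both p53-/- libraries were thus lower, in the direction of their labels, but they still held 452 and 453 reads on the gene, against 933 and 726 in WT. The log2 fold change was -1.31 (95% interval -1.78 to -0.84), with an adjusted p of 0.0602 by edgeR and 1.32e-05 by DESeq2. The sources used here do not name the deleted exons and the counts are summed over the gene, so which part of Trp53 the remaining reads came from cannot be seen. In the GENCODE M21 models no exon of another gene overlaps a Trp53 exon on either strand. The pseudogene Trp53-ps, a near copy, had 3, 2, 0 and 0 counts in the libraries in the same order.

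Wrap53, which starts beside Trp53 on the opposite strand and encodes a protein that guides telomerase RNA to Cajal bodies, was at 20.8 and 17.6 CPM in WT and 15.3 and 19.2 CPM in p53-/-, and the genotypes overlapped. Its log2 fold change was -0.16 (95% interval -0.77 to 0.45). Within a library, where scaling between libraries plays no part, there were 2.78 and 2.68 Trp53 reads per Wrap53 read in WT and 1.299 and 1.174 in p53-/-.

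Mdm2 (ENSMUSG00000020184), the ligase that closes the feedback loop, was at 121 CPM in WT 7, 153 in WT 8, 49.0 in p53-/- 9 and 54.5 in p53-/- 10. The lowest WT library was far above the highest p53-/- library. The mean was 137 ± 22.5 CPM in WT and 51.7 ± 3.87 CPM in p53-/- (SD, n = 2), and the 95% interval of the log2 difference ran from -1.88 to -0.93. The adjusted p was 0.0569 by edgeR and 8.54e-08 by DESeq2. For Mdm2 and Trp53 alike, the edgeR call changed when single libraries were left out. Both genes passed without WT 7 or WT 8, and neither passed without p53-/- 9 or p53-/- 10. Over all genes, the number called lower also rose without a WT library and fell without a p53-/- library. The number called higher rose without a WT library and moved in both directions without a p53-/- library. The log2 fold change ranged from -1.55 to -1.23 for Mdm2 and from -1.45 to -1.15 for Trp53 in these fits.

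Mdm4 (ENSMUSG00000054387), the partner of Mdm2 and an inhibitor of p53, was at 71.2 and 92.9 CPM in the WT libraries and 63.4 and 59.3 CPM in the p53-/- libraries. The p53-/- values were below both WT values, but by less than the WT libraries differed from each other. The log2 fold change was -0.42 (95% interval -0.89 to 0.05, adjusted p = 0.323 by edgeR). The balance between these inhibitors was read from their counts within each library. There were 1.696 Mdm2 reads per Mdm4 read in WT 7 and 1.642 in WT 8, but 0.773 in p53-/- 9 and 0.919 in p53-/- 10. Reads of Mdm2 thus outnumbered those of Mdm4 in both WT libraries and were the fewer in both p53-/- libraries. The log2 ratio was 0.74 ± 0.033 in WT and -0.25 ± 0.18 in p53-/- (SD, n = 2), a difference of -0.99 that ranged from -1.11 to -0.86 when single libraries were dropped. An exact permutation test of 2 against 2 libraries cannot go below p = 0.333 (two-sided), so no p is given for the ratios. These are ratios of reads, and Mdm4 has a longer exon union than Mdm2 (14798 against 5083 bp in GENCODE M21). Per kilobase of that length, Mdm2 stayed above Mdm4 in both p53-/- libraries, at 9.64 and 10.7 CPM against 4.29 and 4.01.

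Mdm2 and Trp53 differed between genotypes by similar amounts. The ratio of Mdm2 to Trp53 reads was 2.09 in WT 7 and 3.24 in WT 8, and the p53-/- values of 2.47 and 2.42 fell between them. The mean log2 difference of -0.09 took the other sign, 0.23, without WT 8.

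**Figure D2:**
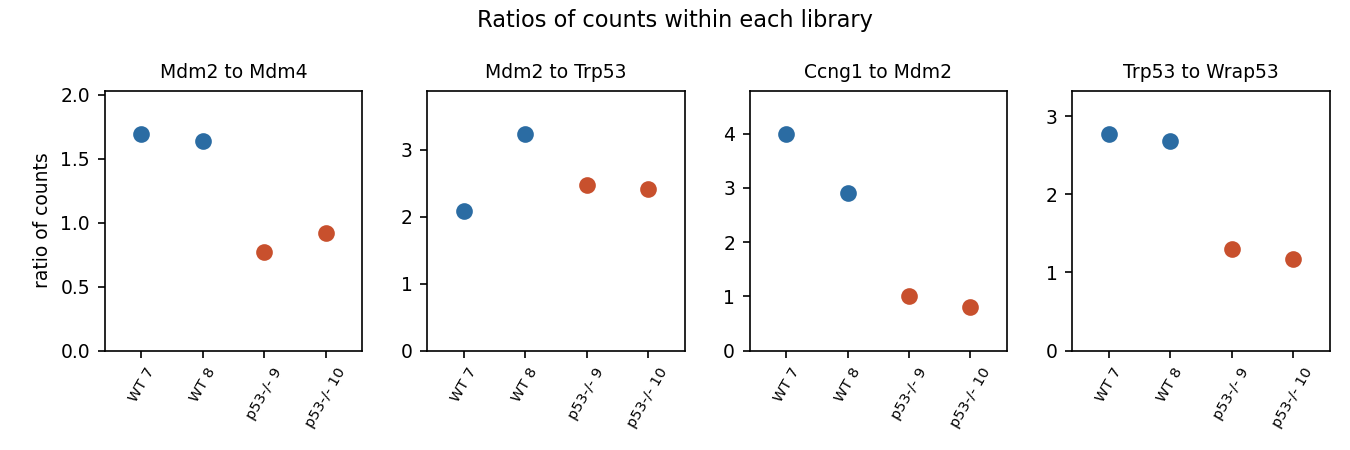
Ratio of the counts of one gene to those of another within each library, on axes that start at 0 (blue, WT; orange, p53-/-). The ratios of Mdm2 to Mdm4, Ccng1 to Mdm2 and Trp53 to Wrap53 are lower in both p53-/- libraries, while those of Mdm2 to Trp53 (2.47 and 2.42) lie between the WT values of 2.09 and 3.24.

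Ccng1 (ENSMUSG00000020326), which encodes cyclin G1, was the member that fell furthest. It had 7792 and 6845 counts in the WT libraries and 1118 and 876 in the p53-/- libraries, or 482 and 444 CPM against 49.0 and 43.6 CPM. No library of one genotype came near the other. The level fell 10-fold, from 463 ± 26.9 to 46.3 ± 3.84 CPM (SD, n = 2), with a log2 fold change of -3.32 (95% interval -3.83 to -2.81) and an adjusted p of 0.0150 by edgeR. By unadjusted p Ccng1 ranked 8 among the 16094 genes tested. Without p53-/- 10, which leaves 1 p53-/- library, the log2 fold change was -3.19 and Ccng1 did not pass the threshold.

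The balance of Ccng1 to Mdm2 reads also differed between genotypes. Each Mdm2 read was matched by 3.996 Ccng1 reads in WT 7 and 2.913 in WT 8, against 1.00 in p53-/- 9, where both genes had 1118 counts, and 0.800 in p53-/- 10. The log2 ratio differed by -1.93 and ranged from -2.16 to -1.70 when single libraries were dropped.

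Ppm1d (ENSMUSG00000020525), the phosphatase WIP1, was at 11.9 and 11.2 CPM in WT and 10.39 and 11.04 CPM in p53-/-. With TMM scaling the p53-/- values sat just below the WT values without overlap. Scaled by library size only, the genotypes overlapped, with a log2 fold change of -0.04. The main fit gave a log2 fold change of -0.11 (95% interval -0.77 to 0.55, adjusted p = 0.879 by edgeR). The interval takes in a fall as large as 0.77 on the log2 scale and does not reach the difference of Mdm2.

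Rchy1 (ENSMUSG00000029397), the ligase Pirh2, was at 43.1 and 32.5 CPM in WT and 33.5 and 41.3 CPM in p53-/-, with full overlap. The log2 fold change was -0.02 (95% interval -0.55 to 0.52, adjusted p = 0.981 by edgeR), and its sign changed with the scaling. In GENCODE M21, 18% of the Rchy1 exon bases are also exon of Thap6 on the opposite strand, and the strand setting of the counting is not given in the sources used here. Thap6 was at 8.36 and 8.63 CPM in WT and 7.10 and 9.40 CPM in p53-/-, below Rchy1 in every library.

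**Figure D3:**
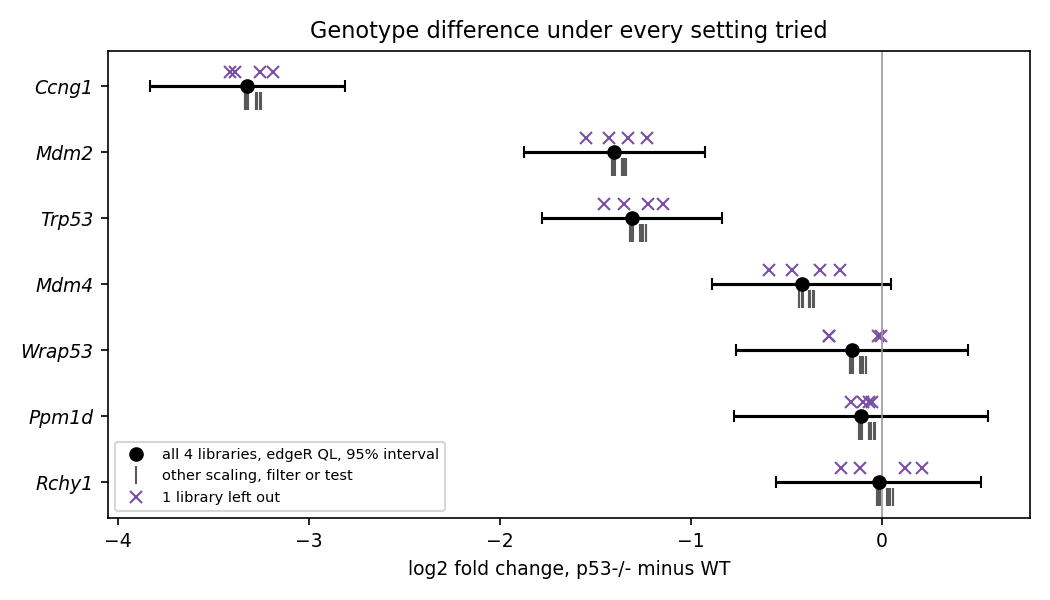
Log2 fold change (p53-/- minus WT) of the 6 members tested and of Wrap53, as fitted on all 4 libraries with its 95% interval (black), under other scalings, filters and tests (grey ticks) and with 1 library left out (purple crosses). The marks of Ccng1 stay between -3.42 and -3.19, those of Mdm2 and Trp53 between -1.55 and -1.15, and those of Rchy1 lie on both sides of 0.

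Trp73 (ENSMUSG00000029026), the gene of p73, had 0, 2, 3 and 5 counts in WT 7, WT 8, p53-/- 9 and p53-/- 10 and was too low to be tested. Both p53-/- libraries held more reads, but few. The ratio of the summed counts, 8 in p53-/- over 2 in WT, was 2.94 after scaling, with a 95% counting interval from 0.587 to 28.4 (exact, counting error only), so no difference was detectable at this depth. A count of 0 allows up to 3 counts. Its antisense gene Trp73os had 0 counts in all 4 libraries. Trp63, the remaining family gene and a factor of stratified epithelia, had 2 counts in p53-/- 9 and 0 elsewhere. Trp53 was therefore the one gene of its family with enough reads to be tested in this tissue.

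Between genes, levels were compared per kilobase of GENCODE M21 exon union (FPKM, the CPM divided by that length), for which the models of all 7 members matched by identifier. In WT, Ccng1 stood far above the rest at 132 ± 7.67 FPKM (SD, n = 2), followed by Mdm2 at 26.9 ± 4.42, Trp53 at 12.96 ± 1.86, Rchy1 at 10.02 ± 1.99, Mdm4 at 5.54 ± 1.04 and Ppm1d at 3.64 ± 0.175 FPKM. Among neighbours in this order, Trp53 and Rchy1 were closest, with 11.7 FPKM in the lower Trp53 library and 11.4 in the higher Rchy1 library. In p53-/- SI, Ccng1 led by little, at 13.2 ± 1.09 FPKM, over Mdm2 at 10.2 ± 0.760 and Rchy1 at 9.91 ± 1.45, and the libraries of Mdm2 and Rchy1 overlapped. Trp53 came next at 5.23 ± 0.476 FPKM, now below Rchy1, ahead of Mdm4 at 4.15 ± 0.197 and Ppm1d at 3.38 ± 0.146. An exon union counts exons that the tissue may not use, which lowers the FPKM of a gene such as Mdm4. The full Trp53 exon union was also used in p53-/-, although that allele may lack exons, so the place of Trp53 there is uncertain.

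The wider machinery that controls p53 was described with 5 lists of 89 genes, of which 87 had enough reads. None of the 87 passed the threshold of edgeR's quasi-likelihood test in either direction, 5 were lower and 8 higher at an unadjusted p under 0.05 (7.92% and 10% over all genes), and DESeq2 called 2 lower and 1 higher (4.47% and 5.47% over all genes). These shares were no larger than those over all genes. The median log2 fold change of the 87 was 0.00, beside -0.01 for all genes tested. Both p53-/- libraries lay above both WT libraries in 21 of the 87 and below them in 16, and over all genes tested 26.4% lay above and 24.4% below. By list the medians were 0.00 for the ubiquitin ligases, -0.03 for the deubiquitinases and the NEDD8 or SUMO arm, -0.06 for the kinases and phosphatases, -0.05 for the ribosomal and ARF arm and 0.13 for the cofactors.

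Of the 20 ubiquitin ligases tested, Rnf125 was at 11.4 CPM in WT and 27.9 in p53-/- (log2 fold change 1.29), Stub1, the chaperone-bound ligase CHIP, at 50.6 and 33.4 (-0.60), and the large ligase Huwe1 at 113 and 156 (0.47). None of the 20 passed edgeR's test, and Rnf125 was called by DESeq2 with an adjusted p of 0.00429. Among the 13 deubiquitinases and genes of the NEDD8 or SUMO arm, the smallest p-values were those of the ligase Nedd4l (132 and 115 CPM in WT, 85.1 and 70.1 in p53-/-, log2 fold change -0.67), the deubiquitinase Usp2 (means of 43.1 and 28.5 CPM, -0.60) and the SUMO protease Senp1 (means of 27.2 and 36.9, 0.44). DESeq2 called Nedd4l, with an adjusted p of 0.0244.

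Among the 18 kinases and phosphatases tested, the kinases that signal DNA breaks and stalled forks to p53 were at low levels, Atm at 6.39 CPM in WT and 12.5 in p53-/- (log2 fold change 0.97) and Atr at 6.76 and 11.8 (0.80). Hipk2, a kinase of p53, was at 27.9 and 41.2 CPM (0.56). The genotypes did not overlap for Atm, Atr or Hipk2, p53-/- being the higher, and none of the 3 passed either test. In the ribosomal and ARF arm, whose proteins restrain Mdm2, the smallest p-values of 11 genes were those of Rps27l (163 and 104 CPM, log2 fold change -0.64), Gnl3, the gene of nucleostemin (20.7 and 30.9, 0.58), and Rps27 (112 and 248, 1.15). Rps27 stood at 7897 counts in p53-/- 10 against 2373 in p53-/- 9, so its libraries overlapped between genotypes. Among 25 cofactors and p53-binding proteins, Ppp1r13l, which encodes the p53 inhibitor iASPP, was at 15.5 CPM in WT and 5.80 in p53-/- (log2 fold change -1.42, adjusted p = 0.137 by edgeR and 0.0105 by DESeq2). Trrap, a scaffold of acetyltransferase complexes, was at 38.6 and 55.5 CPM (0.52), and the chromatin protein Hmgb1 at 47.1 and 66.0 (0.49).

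Transcriptional targets of p53 outside the loop set the scale for Ccng1. Of 40 targets tested, 9 were lower and 0 higher by edgeR's quasi-likelihood test, 20 lower and 0 higher by DESeq2, and the median log2 fold change was -1.05. Both p53-/- libraries lay below both WT libraries in 30 of the 40 and above them in 4. Over all genes, edgeR called 0.193% lower and 0.298% higher, and DESeq2 4.47% and 5.47%. Both p53-/- libraries lay below both WT libraries in 24.4% of all genes tested and above them in 26.4%. The list of targets was chosen with earlier results of these data known. The 5 with the smallest p were Phlda3, an inhibitor of AKT signalling (89.6 CPM in WT and 1.74 in p53-/-, log2 fold change -5.68), Gdf15, a stress cytokine (30.3 and 1.05, -4.84), Eda2r, a TNF receptor family member (325 and 279 counts in WT, 3 and 1 in p53-/-), Zmat3, an RNA-binding protein (80.9 and 24.98 CPM, -1.70), and Psrc1 (31.6 and 3.55, -3.15). The unadjusted p of Ccng1, 7.61e-06, was smaller than that of each of these except Phlda3, whose p was 4.72e-07. Ccng1 had the highest WT level of the 6, at 463 CPM. Its log2 fold change of -3.32 was smaller in size than those of Eda2r (-7.59), Phlda3 and Gdf15, and larger than those of Psrc1 and Zmat3.

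**Figure D4:**
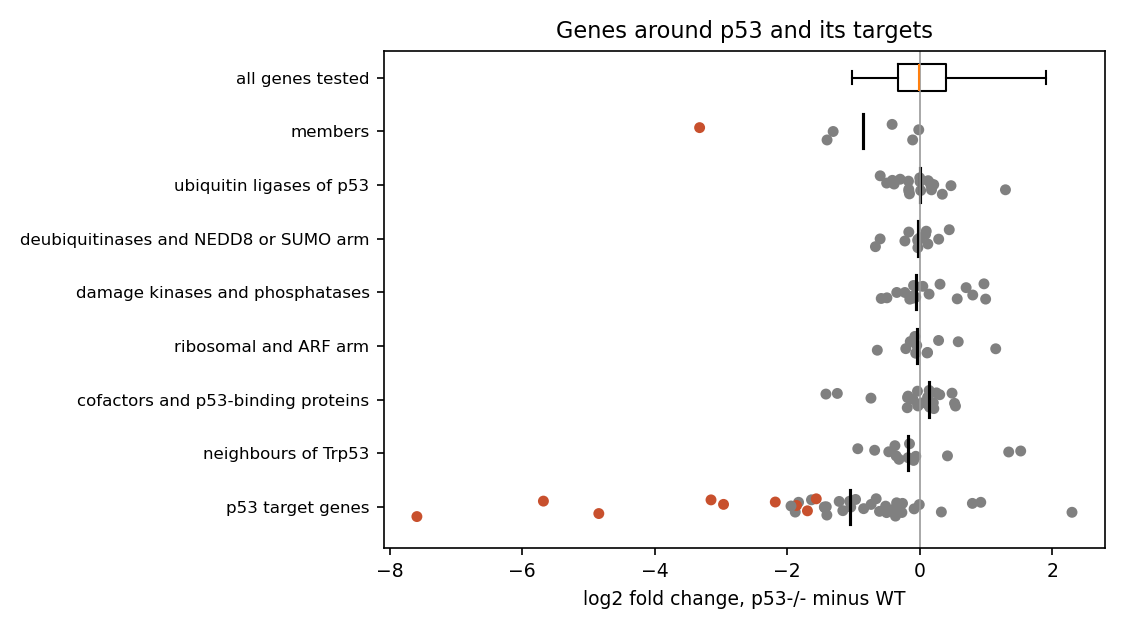
Log2 fold change (p53-/- minus WT) of each tested gene of a list (points, orange where the edgeR adjusted p is under 0.05) with the median of the list (black bar), and above them a box of the quartiles of all 16094 genes tested with whiskers at the 5th and 95th percentiles. Orange points appear among the members (Ccng1) and the p53 targets (9 genes) and in none of the other lists drawn, and the leftmost point, Eda2r, rests on 3 and 1 counts in p53-/-.

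Genes with the same shape over the 4 libraries were found by the Euclidean distance between log2 CPM values centred on the mean of each gene, over the 13179 genes whose log2 CPM averaged 1 or more. Nearest to Trp53 were Paqr8, S100a6 and Oaf (distances 0.105, 0.128 and 0.169), with log2 fold changes of -1.24, -1.37 and -1.27. Nearest to Mdm2 were Rnf32, Crip2 and Bmp1 (0.124, 0.149 and 0.168), with log2 fold changes of -1.33, -1.43 and -1.54. With 4 libraries the distance describes little more than the size of the genotype difference and the order within WT, which was WT 7 above WT 8 for Trp53 and the reverse for Mdm2.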

How the data were processed

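Poly-A RNA of the SI of 2 WT and 2 p53-/- mice was sequenced. Values in the deposited table are raw read counts, not normalized. Per the labels, processing used fastp, HISAT2 2.0.5, featureCounts 1.5.0-p3 and DESeq2 1.20.0. The genome build, annotation and strand setting are not given in the sources used here. Libraries within a genotype differed beyond counting noise (chi-square per degree of freedom 48.0 for WT and 69.5 for p53-/-), and per the study they are biological replicates.

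From the counts, TMM factors, filterByExpr and the quasi-likelihood test of edgeR 4.0.16 (R 4.3.3, two-sided, Benjamini-Hochberg) gave CPM, log2 fold changes and p-values for 16094 genes. Intervals use the degrees of freedom of that test. The steps were tested on simulated data. DESeq2 1.42.0, edgeR's likelihood ratio test, other scalings and filters, and each library left out were the alternatives. Exon lengths came from GENCODE M21, which holds 91.8% of the gene identifiers, and promoter windows from RefSeq GRCm38.p6. No coordinates of counted features are given.

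The members, lists and tests were chosen with earlier results of these data known. Named genes are the members, Trp63 and Wrap53, the genes of each list past the threshold (at most 5, or the 3 with the smallest p where none passed), the lowest and highest neighbour of Trp53, and the 3 genes nearest in pattern to Trp53 and Mdm2. The ratios of Ccng1 to Mdm2 and Trp53 to Wrap53, the pseudogene and antisense counts, and the fit without ribosomal RNA were chosen after seeing the data. The level of 1 cell type marker is not reported here.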

Additional observations from a re-analysis of the deposited data

How the results depend on the processing

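The fall of Ccng1 passed the threshold under 12 of 13 alternatives, the exception being the fit without p53-/- 10. The number of members lower in p53-/- was 1 in the main test. It was 3 with DESeq2, with edgeR's likelihood ratio test and with no filter on low counts, the added ones being Mdm2 and Trp53. Over all genes the main test called 31 of 16094 lower. DESeq2 called 663 of 14845, the likelihood ratio test 462 of 16094 and the fit with no filter 761 of 27841. With a library left out the calls moved in both directions, among the members and over all genes. No alternative gave a higher member. For the 87 genes that control p53, the counts lower and higher moved from 0 and 0 to 2 and 1 with DESeq2. They were 1 and 1 with the likelihood ratio test and 3 and 2 with no filter. Over all genes the number called higher was 48 in the main test and 812 with DESeq2. It was 833 with the likelihood ratio test and 1433 with no filter. The cause was not tested. Trp53, Mdm2, Mdm4, Ppm1d, Ccng1 and Wrap53 kept their direction under all 13 alternatives.

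Rchy1 took the other sign with upper-quartile factors (0.041), library size only (0.059), no filter (0.028), at least 10 counts in every library (0.060), the ribosomal RNA gene left out (0.030), and without WT 7 (0.21) or p53-/- 9 (0.12), ranged from -0.21 to 0.21 with a library left out, and never passed the threshold. The log2 ratio of Mdm2 to Trp53 lay between -0.40 and 0.23 with a library left out, with the sign reversed without WT 8. No paired analysis was possible because the columns of the count table do not carry the replicate numbers of the labels. Where a genotype was left with 1 library, its spread was assumed to equal that of the other genotype. The median log2 fold change over the genes of the main test was -0.01 and ranged from -0.02 to 0.06 with the other scalings. Depth limits Trp73 and Trp63, which had at most 5 counts.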

Other observations

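Genes around Trp53 on its chromosome were listed as a check of the region of the altered allele. Of 15 neighbours, 13 had enough reads and none passed edgeR's quasi-likelihood test, with 1 lower and 2 higher at an unadjusted p under 0.05 beside 7.92% lower and 10% higher over all genes. DESeq2 called 4.47% of all genes lower and 1 of these neighbours (Kdm6b, a histone demethylase named after its values were seen, 126 CPM in WT and 78.5 in p53-/-, adjusted p = 0.0491 by DESeq2). The lowest log2 fold change was that of Atp1b2, a sodium pump subunit, at -0.94, with 24 and 162 counts in WT and 69 and 65 in p53-/-, so the genotypes overlapped. The highest was that of the macrophage gene Cd68, at 1.52, with 30 and 50 counts in WT and 136 and 175 in p53-/-. The median of the 13 was -0.18, beside -1.31 for Trp53.

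Within WT, the members did not order the libraries alike. Trp53, Rchy1, Ppm1d and Ccng1 were higher in WT 7, and Mdm2 and Mdm4 were higher in WT 8.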
